A study of Sus scrofa with 4 samples.

Results

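The hairpins of miR-199a, miR-199b and miR-214 were followed through adipogenic induction of primary pig vascular stem cells from muscle and from subcutaneous fat. These 3 miRNAs were taken by name from the pig hairpins of all 4 libraries, among 189 miRNAs with a read. They are listed as 4 hairpins, since mir-199a has 2 copies (mir-199a-1 and mir-199a-2), and all 4 hairpins had reads in every library.

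The cells were at passage 1 and came from the dorsal longissimus dorsi muscle (IVSC) or from subcutaneous fat (SVSC). The labels call the cell type adipose derived for both origins. Small RNA was sequenced from undifferentiated cells of both origins and from cells given MDI, a mixture that induces fat cells, made of 0.5 mM IBMX, 0.25 µM dexamethasone and 5 mg/l insulin and given at confluence. IBMX raises cyclic nucleotides by blocking phosphodiesterases, and dexamethasone is a synthetic glucocorticoid. IBMX and dexamethasone were removed after 3 days, growth medium came back at day 6, and the cells were kept for 3 or 4 days more. All media held 20% serum. There was 1 library in each of the groups IVSC, IVSC MDI, SVSC and SVSC MDI, so no difference below has a check between replicates, and animal, preparation and group cannot be told apart. The sources used here do not say whether the cultures share an animal. MDI cells were kept for days after confluence, and no such days are listed for the undifferentiated cells. Time in culture and confluence thus cannot be told apart from MDI.

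miR-199 and miR-214 are miRNAs of mesenchymal cells such as fibroblasts, pericytes and bone and muscle precursors. In mammals they are transcribed from the strand opposite to the dynamin genes, and the best known precursor is DNM3OS, a long RNA antisense to DNM3 that is switched on by the transcription factor TWIST1 and carries a miR-199a hairpin together with miR-214. Both arms of the miR-199 hairpin give functional miRNAs: the 5p arm is known to repress HIF1A and CAV1, the 3p arm MTOR and MET. miR-214 is known to repress the Polycomb enzyme EZH2. A hairpin is cut by Drosha and Dicer into a duplex, of which 1 strand is usually kept in Argonaute and the other, the star strand, is mostly lost.

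The RefSeq gene table of Sscrofa11.1, used for names and neighbours only, matched all 4 hairpins. MIR199A-1 lies within DNM3 and its nearest miRNA is MIR214, which lies within DNM3 too. MIR199A-2 lies within DNM2 and MIR199B within DNM1. The match is by name, since the deposited counts hold no sequences. If both number the copies alike, it is copy 1 of mir-199a that sits beside mir-214.

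The libraries held from 2573249 (SVSC MDI) to 17937121 (SVSC) miRNA reads, and hairpins took 70.2% to 77.0% of all reads in the first 3 libraries against 55.0% in SVSC MDI. miR-143 and miR-145, miRNAs of smooth muscle and pericytes, together took 25.7% to 39.8% of the miRNA reads. All 5 skeletal muscle miRNAs had reads, with a summed level of 6275 CPM (counts scaled to 1000000 miRNA reads) in IVSC and 1137 with MDI, and of 1853 CPM in SVSC and 888 with MDI. The endothelial miR-126 stood between 52.6 and 134 CPM. Of the blood cell list 2 of 5 members had a read in each library (7.97 to 34.9 CPM summed), and of the epithelial list 1 of 6 (at most 9 reads). The remaining members of these 2 lists have no entry in any library. Whether the pig hairpin set held them is not known. In such bulk libraries, fewer cells of a type and less RNA per cell cannot be told apart.

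mir-199b was the most abundant of the 3 in every library. Its reads stood at 4267 CPM in IVSC and 4528 with MDI, and at 2885 CPM in SVSC and 6208 with MDI, which in this order ranked 16, 15, 18 and 11 among the miRNAs with a read. mir-199a, with reads shared by its copies counted once, stood at 3591, 3488, 2127 and 4594 CPM in the same order. For both, SVSC was the lowest library and SVSC MDI the highest, except that scaled to all reads IVSC MDI was above SVSC MDI. mir-214 was lower in every library, with 519 CPM in IVSC and 246 with MDI, and 443 CPM in SVSC and 540 with MDI (6883, 3639, 7953 and 1390 reads). IVSC MDI was thus the low library for mir-214, while the other 3 lay within 443 to 540 CPM. Small RNAs ligate to adapters with unequal efficiency, so an order between miRNAs is one of read counts.

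**Figure D1:**
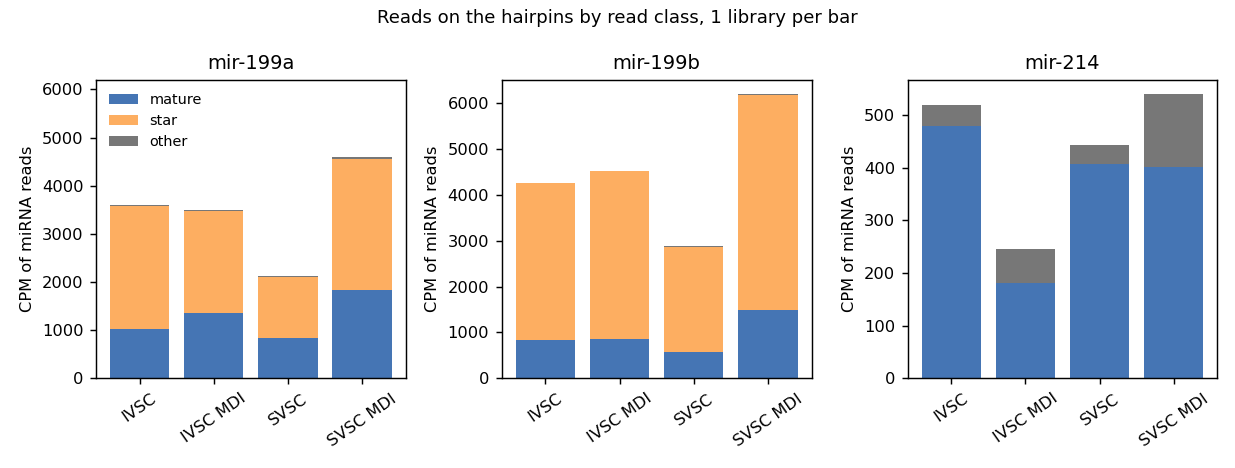
Reads of mir-199a, mir-199b and mir-214 in CPM of miRNA reads (vertical axis, scaled separately in each panel), 1 library per bar, split into reads on the mature miRNA (blue), the star strand (orange) and the rest of the hairpin (grey, called other). Star reads make up most of both miR-199 bars, and other reads are visible only for mir-214, where they grow from 40.9 to 65.2 CPM in IVSC and from 36.2 to 138 CPM in SVSC with MDI.

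With MDI in IVSC, mir-214 was the member that passed 2-fold, and the 2 miR-199 hairpins stayed near a ratio of 1. Ratios are given with exact 95% intervals that cover counting error only. A miRNA was called higher or lower where the ratio was at least 2-fold and the interval left out 1. mir-214 was lower by 2.11-fold (2.03 to 2.20). mir-199a had a ratio of 0.971 (0.959 to 0.983) and mir-199b one of 1.06 (1.05 to 1.07). Of all 152 miRNAs compared in IVSC, 23.7% were called lower and 16.4% higher, so 1 of 3 lower is near the background. In the same comparison the summed skeletal muscle miRNAs went from 6275 to 1137 CPM, and their part in the fall of mir-214 was not tested. That sum was mostly mir-206 (4874 to 140 CPM) and mir-1 (1242 to 882 CPM), while mir-133a stood at 78.2 and 85.5 CPM and mir-499 at 12.8 and 13.3 CPM. In SVSC mir-133a went from 21.6 to 198.6 CPM while the sum went from 1853 to 888 CPM. Scaled to all reads in place of miRNA reads, mir-214 had a ratio of 0.550 and without miR-21 one of 0.502, both short of 2-fold. Scaled to all reads mir-199a had a ratio of 1.13, and calls over all miRNAs turned from 25 higher and 36 lower to 32 higher and 21 lower.

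With MDI in SVSC, both miR-199 hairpins were called higher and mir-214 was not. mir-199a had a ratio of 2.16 (2.12 to 2.21) and mir-199b one of 2.15 (2.11 to 2.19). mir-214 had a ratio of 1.22 (1.15 to 1.29). In this comparison 34.2% of 146 miRNAs were called higher and 21.9% lower (50 and 32), and the median log2 ratio over all of them was 0.41. The other 4 scalings move every log2 ratio here by -0.50 (TMM) to -0.40 (miRNA reads without miR-21), and with TMM 36 miRNAs were called higher and 45 lower. Under these 4 scalings mir-199a had ratios of 1.52 to 1.64 and mir-199b of 1.52 to 1.63, higher but short of 2-fold, and mir-214 turned to 0.859 to 0.924. Against the median of all miRNAs the miR-199 hairpins were thus higher by 0.70 and 0.69 on the log2 scale, and mir-214 was lower by 0.13.

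**Figure D2:**
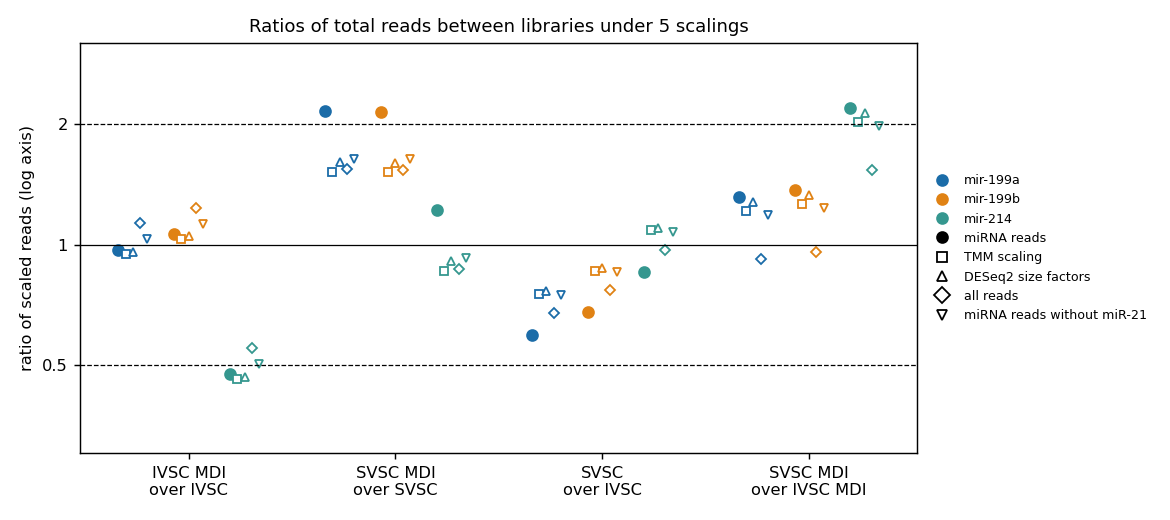
Ratios of total reads between pairs of libraries (vertical log axis) for mir-199a (blue), mir-199b (orange) and mir-214 (green), scaled to miRNA reads (filled circles) and in 4 other ways (open symbols), with lines at 1 and at 2-fold. In SVSC the miR-199 ratios of 2.16 and 2.15 drop below 2 under every other scaling, and mir-214 lies on both sides of 1.

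Before induction, no member differed 2-fold by origin. SVSC over IVSC gave a ratio of 0.592 for mir-199a, 0.676 for mir-199b and 0.854 for mir-214, the last turning to 1.08 with TMM. Over 148 miRNAs compared, 20.9% were called lower and 7.43% higher in SVSC (31 and 11, or 24 and 27 with DESeq2 size factors). After induction, mir-214 was called higher in SVSC MDI than in IVSC MDI, at 2.20-fold (2.07 to 2.34), against 17.7% of 147 miRNAs called higher and 10.2% lower (26 and 15, or 7 and 29 scaled to all reads). mir-199a and mir-199b had ratios of 1.32 and 1.37. Scaled to all reads, that of mir-214 was 1.53 (1.98 without miR-21) and those of the miR-199 hairpins were 0.919 and 0.956. Comparisons by origin and by MDI use the same 4 libraries, so they are not separate evidence.

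The model over all 4 libraries, with origin and MDI as additive terms (edgeR's quasi-likelihood test, Benjamini-Hochberg over 179 miRNAs), called none of the 3 members. It has 1 residual degree of freedom. The MDI effect had a log2 ratio of -0.57 for mir-214 (SE 0.58, adjusted p = 0.64), 0.37 for mir-199a (SE 0.55, adjusted p = 0.76) and 0.43 for mir-199b (SE 0.54, adjusted p = 0.70). Of all miRNAs tested, 10.6% passed for MDI and 2.79% for origin. By origin the log2 ratios were 0.61 for mir-214 (adjusted p = 0.91), -0.02 for mir-199a and 0.10 for mir-199b (both adjusted p = 0.996). The lowest unadjusted p of the 3 was 0.29, for mir-214 by origin. DESeq2 called none of them either, and its lowest adjusted p was 0.53, for the MDI effect on mir-214.

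Measures taken within 1 library need no scaling, and there mir-214 moved apart from both miR-199 hairpins with MDI in both cultures. Per mir-214 read there were 6.91 mir-199a reads in IVSC and 14.2 in IVSC MDI, and 4.80 in SVSC and 8.50 in SVSC MDI. This ratio was thus 2.05-fold higher with MDI in IVSC and 1.77-fold higher in SVSC. On mature reads alone it went from 2.16 to 7.56 in IVSC (3.50-fold) and from 2.05 to 4.58 in SVSC (2.23-fold). Reads on the mature mir-199a arm match both copies, so how many of them came from the copy beside mir-214 cannot be told apart from these files. mir-199b, which lies elsewhere, moved apart from mir-214 as well, from 8.22 to 18.4 reads per mir-214 read in IVSC (2.24-fold) and from 6.51 to 11.5 in SVSC (1.77-fold). miRNAs in general spread widely with MDI. The quartiles of the log2 ratio over all miRNAs compared were -0.92 and 0.64 in IVSC, and -0.85 and 1.48 in SVSC. How often 2 miRNAs move apart by as much as these was not counted. Over all reads mir-199b to mir-199a went from 1.19 to 1.30 in IVSC and from 1.36 to 1.35 in SVSC. By class that pair moved in opposite directions in IVSC, with mature reads going from 0.819 to 0.621 and star reads from 1.34 to 1.75.

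The composition of the mir-214 reads changed with MDI in the same way in both cultures. No star strand is counted for mir-214, and its reads fall into the mature miRNA and the class called other, which holds exact matches elsewhere on the hairpin. Other reads took 7.87% (7.25 to 8.54) of the hairpin in IVSC and 26.5% (25.1 to 28.0) in IVSC MDI. They took 8.16% (7.57 to 8.78) in SVSC and 25.6% (23.3 to 28.0) in SVSC MDI. The undifferentiated libraries lay close together, the MDI libraries lay close together, and no interval of one pair overlapped one of the other.

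Behind these shares, mature mir-214 reads went from 478 to 180 CPM in IVSC (2.65-fold lower; 2.53 to 2.77) and from 407 to 402 CPM in SVSC (ratio 0.987; 0.924 to 1.05). Other reads went from 40.9 to 65.2 CPM in IVSC (ratio 1.59; 1.43 to 1.77) and from 36.2 to 138 CPM in SVSC (ratio 3.82; 3.35 to 4.36). By the 2-fold rule the mature class was called lower in the muscle culture and the other class higher in the fat culture. Other reads were above 1 in both cultures under all 5 scalings. The near level mature class in SVSC holds for miRNA reads alone, since the other 4 scalings gave 0.696 to 0.749. The deposited counts do not say which part of the hairpin the other reads cover, or whether they come from the opposite arm.

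Over all miRNAs, a share of other reads higher by at least 10 percentage points, with intervals apart, was seen in 5.52% of 145 miRNAs with MDI in IVSC and in 10.5% of 114 in SVSC. It was seen in both cultures for 3 of 114 miRNAs (2.63%), namely mir-7 (27.9 and 21.6 points), mir-214 (18.7 and 17.5 points) and mir-331 (12.6 and 38.5 points). The median change over all miRNAs was -0.14 points in IVSC and 0.0049 points in SVSC. The 10-point rule was set after the shares of mir-214 had been seen. By origin the mir-214 shares were alike, at 8.16% against 7.87% undifferentiated and 25.6% against 26.5% after MDI.

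**Figure D3:**
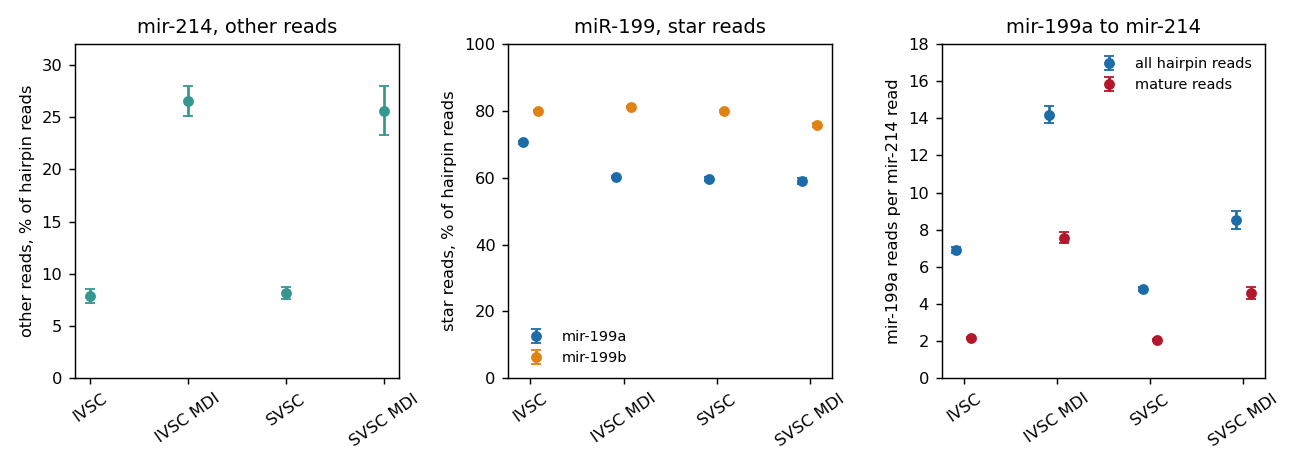
Measures that need no scaling, 1 point per library with exact 95% intervals: other reads as a percentage of mir-214 reads (left), star reads as a percentage of mir-199a (blue) and mir-199b (orange) reads (middle), and mir-199a reads per mir-214 read (right, all reads blue, mature reads red). Other reads of mir-214 stand near 8% without MDI and near 26% with it in both cultures, and mir-199a reads per mir-214 read are higher with MDI in both.

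**Figure D4:**
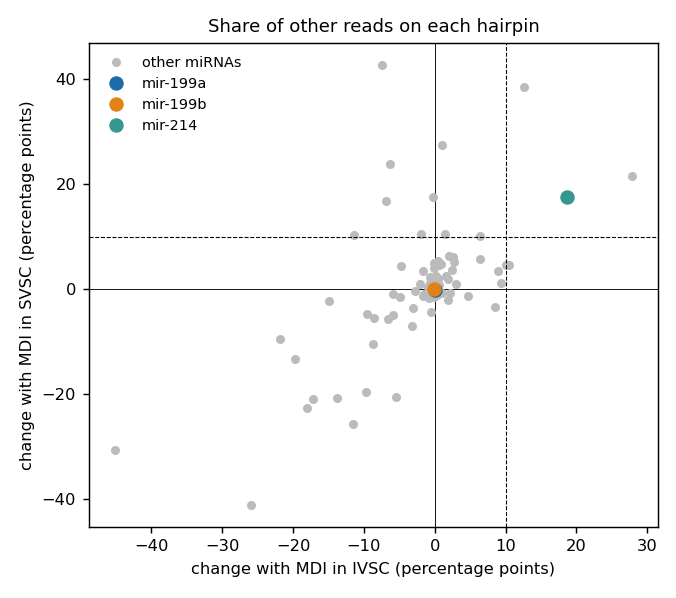
Change with MDI in the share of other reads, in percentage points, in IVSC (horizontal) against SVSC (vertical) for 114 miRNAs, with dashed lines at 10 points. mir-214 (green) lies at 18.7 and 17.5 points with 2 more miRNAs beyond both lines, while mir-199a and mir-199b overlie each other near 0.

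Most miR-199 reads lay on the strand that the files annotate as the star. For mir-199b star reads took 79.9% of the hairpin in IVSC and 81.1% with MDI, and 79.96% in SVSC and 75.8% with MDI. For mir-199a they took 70.6%, 60.2%, 59.6% and 59.1% in the same order. mir-199a in undifferentiated IVSC thus stood apart, by 10.4 points from IVSC MDI, and the other 3 libraries lay within 59.1% to 60.2%. This rests on how star reads were divided between mir-199a and mir-199b, which is uncertain. With MDI in IVSC the star reads of mir-199a had a ratio of 0.828 and those of mir-199b one of 1.08. Only 9 hairpins had star reads in each library, whatever its depth, and the 2 miR-199 hairpins with star reads held 53.3% to 82.4% of all star reads. Reads elsewhere on a hairpin fall into the other class, which held 99.96% of mir-143 reads in IVSC. Whether the remaining hairpins have a star strand annotated is not given, so these shares do not compare star output between miRNAs.

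In counts, the mature mir-199a class had a ratio of 1.32 (1.29 to 1.35) with MDI in IVSC and its star class one of 0.828 (0.815 to 0.841). Star reads of mir-199a and mir-199b together stood at 5944 and 5770 CPM, a ratio of 0.971, and how star reads were divided between the hairpins is uncertain. In SVSC both classes were called higher with MDI, at 2.20-fold and 2.14-fold. For mir-199b the mature and star classes had ratios of 1.00 and 1.08 in IVSC, and 2.61 (2.51 to 2.71) and 2.04 (2.00 to 2.08) in SVSC. The other scalings lower these SVSC ratios by the same factor as those of the totals. Other reads were at most 1.06% of mir-199a and 0.356% of mir-199b.

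The copies of mir-199a could hardly be told apart. In IVSC copy 1 held 13689 mature reads and copy 2 held 13687, and in no library did a copy have more than 5 mature reads of its own. Star reads were counted on copy 1 alone, with 33601 in IVSC, and copy 2 stood at 0 in every library. Between mir-199a and mir-199b, 3.84% to 7.97% of the star reads of a hairpin were listed as matching another hairpin as well, and no mature read of mir-199b was. One arm of miR-199a and miR-199b has the same sequence in mammals. The files name no arm and the sources used here do not give the rule for placing reads, so the split of star reads between mir-199a and mir-199b is uncertain. The sum of both, which that split does not touch apart from reads listed on both, was 78766 star reads in IVSC and 85454 with MDI, and 64130 in SVSC and 19107 with MDI.

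Arm use depended on which matches were counted. Exact copies of the annotated mature sequence made up 79.7% to 84.1% of mature mir-199a reads, against 12.4% to 25.4% for mir-199b and 11.6% to 14.4% for mir-214. Of star reads, 7.65% to 10.7% were exact for mir-199a and 12.3% to 27.8% for mir-199b. On exact matches alone the star strand of mir-199a was therefore the minor one, at 18.3% of exact mature and star reads in IVSC and 13.9% with MDI, and at 13.4% in SVSC and 16.6% with MDI. That of mir-199b remained the major one, at 82.4% and 80.2% in IVSC without and with MDI and at 90.1% and 60.6% in SVSC. Reads that are not exact can start or end elsewhere or differ in a base, and the files do not separate these.

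In SVSC the exact matches of mir-199b moved otherwise than all its reads. Exact mature reads were 1268 in SVSC and 969 in the much shallower SVSC MDI library, a ratio of 5.33 (4.89 to 5.80) against 2.61 for all mature reads. Exact star reads had a ratio of 0.902 (0.854 to 0.952) against 2.04 for all star reads. The exact share of mature reads was higher by 13.0 points in SVSC MDI, and 8.7% of 92 miRNAs had a share higher by at least 10 points, with a median change of -0.97 points over all 92. Exact shares of all star reads pooled were 29.2% in SVSC and 19.5% in SVSC MDI. mir-199b itself made up 41381 of 120225 star reads in SVSC and 12116 of 23177 in SVSC MDI. This pool is thus no separate background for mir-199b. Exact shares of all mature reads pooled were 38.3% and 62.3%, but miR-21 weighs heavily there, at 440817 CPM in SVSC. The exact share of miR-21 itself went from 14.1% to 50.3%, while the median share over the 92 miRNAs went from 59.2% to 51.4%. The part of these differences in that of mir-199b was not tested.

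**Figure D5:**
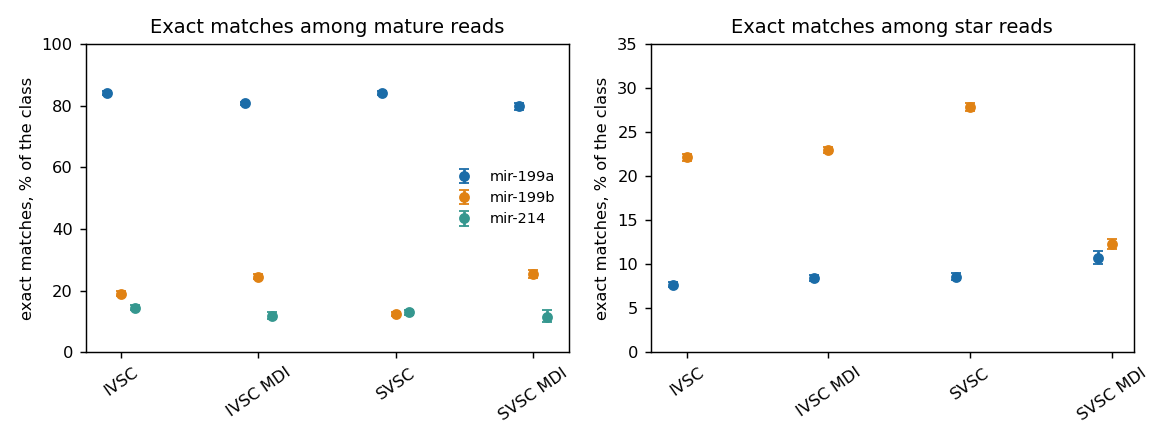
Reads equal to the annotated sequence as a percentage of mature reads (left: mir-199a, mir-199b and mir-214) and of star reads (right: mir-199a and mir-199b), 1 point per library with exact 95% intervals. Mature mir-199a reads are mostly exact in all 4 libraries, and mir-199b has its lowest mature value (12.4%) and its highest star value (27.8%) in SVSC.

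Over the 4 libraries, mir-199a and mir-199b were each the most similar miRNA to the other. Likeness was measured as the distance between mean-centred log2(CPM + 1) profiles, over 107 other miRNAs at 100 CPM or more in a library, and only describes 4 points. The distance between the 2 was 0.15, against a median distance of 1.33 from mir-199a to those miRNAs. Most reads of both are star reads, and the split of these between the hairpins is uncertain, so the 2 profiles cannot be taken as independent. How far this shapes their distance was not tested. The next were mir-23a (0.24) and mir-450a (0.26) for mir-199a, followed by the smooth muscle miRNA mir-143 (0.38), and mir-23a (0.24), mir-450a (0.36) and mir-361 (0.37) for mir-199b. For mir-214 the nearest were mir-374a (0.55), mir-15b (0.61) and mir-151 (0.66). mir-199a lay at 1.13 from mir-214, and 32 of the 107 miRNAs were nearer to mir-214 than that.

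Of 14 other mesenchymal miRNAs, 1 was called higher with MDI in IVSC and 2 lower (16.4% and 23.7% of all miRNAs), and in SVSC 5 were called higher and 3 lower (34.2% and 21.9% of all). Their median log2 ratio was 0.29 in IVSC (all miRNAs -0.04) and 0.23 in SVSC (all miRNAs 0.41). mir-145, the miRNA of contractile smooth muscle, was called higher and mir-152 lower in both, the latter with ratios of 0.426 and 0.415. In IVSC mir-221 was called lower too (0.224). In SVSC mir-10b, mir-99a, mir-29c and mir-125b were called higher, at 10.0 to 2.33-fold, and mir-100 (0.239) and mir-140 (0.326) lower. There mir-221 had a ratio of 0.505, just short of 2-fold. All calls in this list are for scaling to miRNA reads, and other scalings change some of them. In SVSC the other scalings moved every log2 ratio by -0.50 (TMM) to -0.40 (without miR-21). The log2 ratios of mir-125b (1.22) and mir-29c (1.29) then fell short of 2-fold, and that of mir-221 (-0.99) passed it. By origin mir-100 was called higher and mir-10b, mir-221 and mir-29c lower in SVSC before induction (7.43% and 20.9% of all), and after it mir-10b was called higher and none lower (17.7% and 10.2% of all).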

How the data were processed

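Small RNAs of 16 to 35 nt were sequenced for 36 cycles from 4 libraries. The authors deposited read counts per feature, and per the file headers these are given for pig hairpins, Ensembl Sscrofa9.61 non-coding RNAs, piRNAs and Rfam entries, as mature, star (Mature*), other and total reads, with exact and uniquely matching reads apart. In the SVSC file some Rfam entries hold blank or damaged values. Hairpin entries are whole numbers, and only these gave the members' counts, apart from Rfam values named as such. The scaling to all reads divided by the summed totals of all these kinds of entry. That sum counts each hairpin copy and leaves out values that could not be read, so it is a sum over features. The sources used here give no aligner, mismatch limit or trimming, and the mouse build mm9 stands in the submitters' processing notes without a role.

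The members and lists were chosen with earlier results of these data known. Reads shared by copies of a hairpin entered once (those of the copy with most reads, plus uniquely matching reads of the others) and were scaled to CPM of miRNA reads. miRNAs at 10 CPM or more in 1 of 2 libraries were compared by ratio with exact Clopper-Pearson 95% intervals (SciPy 1.17.1). A count of 0 was set to 3 reads, 0.167 to 1.17 CPM by library. No molecular identifiers mark PCR copies, so reads are not independent molecules and intervals cover counting error only. Shares of reads were compared where both libraries had 100 reads. By the rule for names, the miRNAs named outside the members are the 3 most similar to each member and those called in the mesenchymal list. Marker miRNAs, miR-21 and those whose other share was higher in both cultures were named after their values were seen. The additive model used edgeR 4.0.16 (filterByExpr, TMM; R 4.3.3), with the spread of all miRNAs pooled, and DESeq2 1.42.0 as the alternative. Both scripts were tested on simulated data. Alternatives covered scaling, read class, copies, unique reads and minimum level.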

Additional observations from a re-analysis of the deposited data

Results flagged for a closer look

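Several effects of MDI had opposite directions in the 2 cultures. With 1 library per group the difference was not tested, and the intervals given cover counting error only. The sizes of the differences hold for scaling to miRNA reads. Scaled to all reads, log2 ratios shift by 0.22 in IVSC and by -0.49 in SVSC, so every difference in this paragraph is smaller there. For mir-214 the log2 ratio was -1.08 in IVSC and 0.28 in SVSC, a difference of 1.36 (1.26 to 1.47). Under the 4 other scalings the ratio in SVSC lay below 1, so that there both cultures had lower mir-214. Scaled to all reads its ratios were 0.550 in IVSC and 0.870 in SVSC. For mir-199a the log2 ratio was -0.04 in IVSC and 1.11 in SVSC, a difference of 1.15 (1.12 to 1.19). Its ratio in IVSC was above 1 when scaled to all reads (1.13, against 1.54 in SVSC) or without miR-21 (1.03). There both cultures had higher mir-199a. For its star reads it was -0.27 and 1.10, a difference of 1.37, with the division of star reads between the hairpins uncertain. For the few other reads of mir-199b it was -0.36 (169 and 147 reads) and 0.80 (184 and 46 reads), a difference of 1.16 (0.60 to 1.73). Scaled to all reads, that interval no longer leaves out equal ratios in both cultures.

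Rfam entries of the mir-199 family, left out of the counts above, held reads that were more abundant with MDI. Counted once they were 2841 reads in IVSC and 3562 in IVSC MDI, a ratio of 1.12 (1.07 to 1.18). In SVSC they were 2013 and 696 reads, a ratio of 2.41 (2.21 to 2.63), which under the other 4 scalings was 1.70 to 1.83. The SVSC file holds damaged Rfam entries, but none of the mir-199 family is among them. A single entry held 77.6% to 87.9% of the family's summed reads in each library.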

How the results depend on the processing

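Of 114 alternative values of the members' ratios and model effects, 80 kept their direction and side of the threshold, 17 turned direction, 15 lost and 2 gained the call. Of 48 alternative counts of miRNAs called, 35 stayed within 1.5 times, though the balance of higher against lower calls could still turn. Of 32 alternative shares, 8 stayed within counting error and 24 moved. These 8 were the mir-199a shares on copy 1 alone. The main values rest on that copy, so their agreement was fixed in advance. The causes of the changes were not tested. Mature and exact mature reads were here scaled to all reads of their class. With MDI in IVSC, mir-199a had ratios of 1.13 (all reads), 1.03 (without miR-21), 1.38 (mature reads), 1.35 (exact mature reads) and 1.11 (sum over copies), mir-199b 0.992 on reads matching 1 hairpin, and mir-214 0.550 (all reads), 0.502 (without miR-21) and 0.502 (sum over copies). In SVSC, under TMM, DESeq2 factors, all reads and without miR-21, mir-199a had 1.52, 1.61, 1.54 and 1.64, mir-199b 1.52, 1.60, 1.54 and 1.63, and mir-214 0.859, 0.907, 0.870 and 0.924. On exact mature reads mir-199a had 1.59 and mir-214 0.670. For SVSC over IVSC, mir-199a had 0.372 on reads matching 1 hairpin (star reads, as its copies share the mature reads), mir-199b 0.497 on exact mature reads, and mir-214 1.08, 1.10 and 1.08 under TMM, DESeq2 factors and without miR-21. For SVSC MDI over IVSC MDI, all reads gave 0.919, 0.956 and 1.53 for mir-199a, mir-199b and mir-214, and mir-214 had 1.98 without miR-21 and 1.76 on exact mature reads. In the model, the origin effect of mir-199b was -0.055 with library sizes alone.

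Counts of calls moved with MDI in IVSC to 21 lower (all reads) and 20 (100 CPM), in SVSC to 33 higher (all reads) and 20 lower (100 CPM), for SVSC over IVSC to 24, 27 and 24 higher (TMM, DESeq2 factors, without miR-21) and 6 higher and 16 lower (100 CPM), and for SVSC MDI over IVSC MDI to 7 higher and 29 lower (all reads), 25 lower (without miR-21) and 8 lower (100 CPM). In the order IVSC, IVSC MDI, SVSC, SVSC MDI, the star share of mir-199a was 54.5%, 43.0%, 42.5% and 41.98% summed over copies and 0% on copy 2, and its other share was 1.01%, 1.01%, 1.52% and 1.19% summed and 2.32%, 1.84%, 2.65% and 2.07% on copy 2. Arm use on exact matches was 18.3%, 13.9%, 13.4% and 16.6% for mir-199a and 82.4%, 80.2%, 90.1% and 60.6% for mir-199b. At 5 points, 5 miRNAs in place of 3 had a higher other share in both cultures, a limit chosen after seeing the data. Leaving out a library leaves the model no residual degree of freedom, so it was not run. SVSC MDI, the shallowest library, limits the precision most: its mir-214 level rests on 1390 reads.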

Other observations

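Rfam entries of the mir-214 family held 108 reads in IVSC and 42 with MDI, and 90 reads in SVSC and 17 with MDI, counted once. The ratio with MDI was 0.348 (0.238 to 0.501) in IVSC and 1.32 (0.735 to 2.23) in SVSC. The interval in SVSC spans 1, so no change was detectable there at this depth.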
